A study of Mus musculus with 18 samples.

Results

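The 9 genes described here, Nkx2-1, Nkx6-2, Lhx6, Lhx8, Gbx1, Gbx2, Maf, Satb1 and Zeb2, encode transcription factors known from the interneuron lineage of the medial ganglionic eminence (MGE), a swelling on the floor of the embryonic forebrain. They were taken by symbol from a raw count table of 24062 gene lines, and all 9 were found. Expression was measured by RNA sequencing of poly(A)-selected libraries from C57BL/6 mice. Chd2+/- mice (HET), with 1 mutant copy of the chromatin remodeller gene Chd2, were set against wild-type mice (WT) in the hippocampus at P45 (P, postnatal day), and in the MGE and cortex at E13.5 (E, embryonic day). Each of the 6 groups held 3 libraries, 18 in all. The sources used here do not give the kind of Chd2 allele or the sex of the animals. They also do not say that the replicates of a group came from different mice, so p-values cover the spread among these libraries, which may be technical in part. Sex markers differed within each cortex group, as given below.

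Libraries held 26841671 to 38802765 counts. Levels are CPM, counts divided by the TMM-scaled library size over all 18 libraries. Chd2 averaged 65.3 ± 1.39 CPM in HET hippocampus and 73.8 ± 4.18 CPM in WT hippocampus, 140.0 ± 4.22 CPM in HET MGE and 163 ± 10.5 CPM in WT MGE, and 125 ± 0.233 CPM in HET cortex and 148 ± 5.93 CPM in WT cortex (SD, n = 3 each), with no overlap between genotypes in any tissue. Genotype and sex markers cannot be told apart in the MGE: Xist reached at most 1.08 CPM in the 3 HET libraries, which expressed Y-linked genes, and was 1737 to 1920 CPM in the 3 WT libraries. In the cortex the 5 sex-linked genes split both genotypes. Their mean log2 deviations were 2.77, -2.64 and 2.87 in HET 1, 2 and 3 and 2.84, -2.87 and -2.98 in WT. The replicates of a cortex group thus did not all come from the same mouse. MGE and cortex of the same genotype also differed in sex markers. In the cortex HET 1 and HET 2 stood apart from HET 3. Their cell cycle genes (15 listed) were on average 0.38 and 0.43 above the mean of the cortex libraries on the log2 scale, whereas HET 3 was at -0.27 and WT 1, WT 2 and WT 3 at -0.27, -0.08 and -0.19. Some member results for cortex, and for differences that use HET cortex, are therefore also given without HET 3 or without HET 1 and HET 2. Genes other than the members were fitted with all libraries only.

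The MGE is patterned by Sonic hedgehog, which switches on Nkx2-1 in its dividing progenitors. NKX2-1 in turn activates Lhx6 and Lhx8 as cells stop dividing, and these LIM-homeodomain factors separate cortical interneurons from cholinergic neurons of the basal forebrain. Cells that migrate into cortex and hippocampus switch Nkx2-1 off, an event that requires the repressor ZEB2, and keep Lhx6 on while SATB1 and MAF act in their maturation into somatostatin and parvalbumin interneurons.

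All 9 genes lie on the minus strand of mm10 (GENCODE M21 annotation). Nkx2-1 spans chr12:56531958-56536908, Nkx6-2 chr7:139579376-139582797, Lhx6 chr2:36081953-36105408, Lhx8 chr3:154306294-154330659 and Gbx1 chr5:24502757-24527202. Gbx2 spans chr1:89927956-89931179, Maf chr8:115682942-115707794, Satb1 chr17:51736187-51833290 and Zeb2 chr2:44983632-45117395. RefSeq promoter windows (GRCm38.p6, 250 bases before to 50 after a start site) were matched for 7 of them, all but Gbx1 and Maf. Windows of 4 members are shown because their RNA was high in the MGE and low in both other tissues. The Lhx8 window overlaps the gap between the divergent starts of Lhx8 and its neighbour. Capitals mark the matches to 4 motifs searched on both strands, namely CAAGTG (core of NK2-class homeodomain sites), TAATTA (homeodomain core), CACCTG (E-box of ZEB factors) and TGCTGAC (half-site of MAF factors).
Nkx2-1, chr12:56536859-56537158, minus strand: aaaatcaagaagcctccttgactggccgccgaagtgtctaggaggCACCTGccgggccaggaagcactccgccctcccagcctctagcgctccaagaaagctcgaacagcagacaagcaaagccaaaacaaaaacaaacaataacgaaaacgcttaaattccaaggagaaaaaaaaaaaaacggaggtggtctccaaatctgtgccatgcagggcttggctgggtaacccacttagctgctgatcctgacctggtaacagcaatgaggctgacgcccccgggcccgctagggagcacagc
Lhx6, chr2:36105359-36105658, minus strand: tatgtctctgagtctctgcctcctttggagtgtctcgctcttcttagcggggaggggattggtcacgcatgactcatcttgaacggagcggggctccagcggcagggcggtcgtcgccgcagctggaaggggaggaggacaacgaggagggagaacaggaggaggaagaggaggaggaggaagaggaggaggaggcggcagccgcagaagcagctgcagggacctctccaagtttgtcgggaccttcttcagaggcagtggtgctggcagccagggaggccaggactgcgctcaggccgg
Lhx8, chr3:154330511-154330810, minus strand: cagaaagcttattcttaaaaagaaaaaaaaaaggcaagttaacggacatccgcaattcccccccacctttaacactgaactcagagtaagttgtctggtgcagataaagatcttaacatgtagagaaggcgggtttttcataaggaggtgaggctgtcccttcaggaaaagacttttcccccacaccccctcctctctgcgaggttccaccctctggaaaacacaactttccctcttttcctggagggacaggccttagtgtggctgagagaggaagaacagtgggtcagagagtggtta
Gbx2, chr1:89931127-89931426, minus strand: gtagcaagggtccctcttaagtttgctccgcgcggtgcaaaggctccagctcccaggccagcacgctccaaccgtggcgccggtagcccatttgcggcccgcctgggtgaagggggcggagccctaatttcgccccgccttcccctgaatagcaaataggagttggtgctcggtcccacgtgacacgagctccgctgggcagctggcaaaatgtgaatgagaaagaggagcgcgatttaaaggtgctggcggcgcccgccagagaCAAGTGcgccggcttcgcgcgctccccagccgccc

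The Nkx2-1 window held 1 CACCTG, whose first base lay at -205 from the start, and the Gbx2 window held 1 CAAGTG at 15. The windows of Lhx6 and Lhx8 held none of the 4 motifs. Among 32851 promoter windows of this length, 20.21% held CACCTG on either strand, 13.56% CAAGTG, 5.29% TAATTA and 4.67% TGCTGAC. A match is a description of the letters and not a binding site. The printed windows also differed in base composition, with 53.7% GC and 12 CpG in Nkx2-1, 63.3% GC and 16 CpG in Lhx6, 47.0% GC and 4 CpG in Lhx8, and 64.7% GC and 27 CpG in Gbx2, against a median of 52.7% GC over all windows. For Lhx6 only the first of its windows is printed, and its windows 2 and 3 had 55.3% and 48.7% GC.

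The first question was where these genes were expressed. Nkx2-1, Lhx6, Lhx8, Gbx1 and Gbx2 were MGE genes in these libraries, at least an order of magnitude above cortex and hippocampus, whereas Satb1, Maf and Zeb2 were present in all 18 libraries and Nkx6-2 was shared by MGE and hippocampus. The difference between tissues was tested with edgeR's quasi-likelihood F test with Benjamini-Hochberg adjustment over all genes, within each genotype. In bulk tissue, fewer cells of a type and less RNA per cell cannot be told apart, and in comparisons with the hippocampus tissue and age change together.

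**Figure D1:**
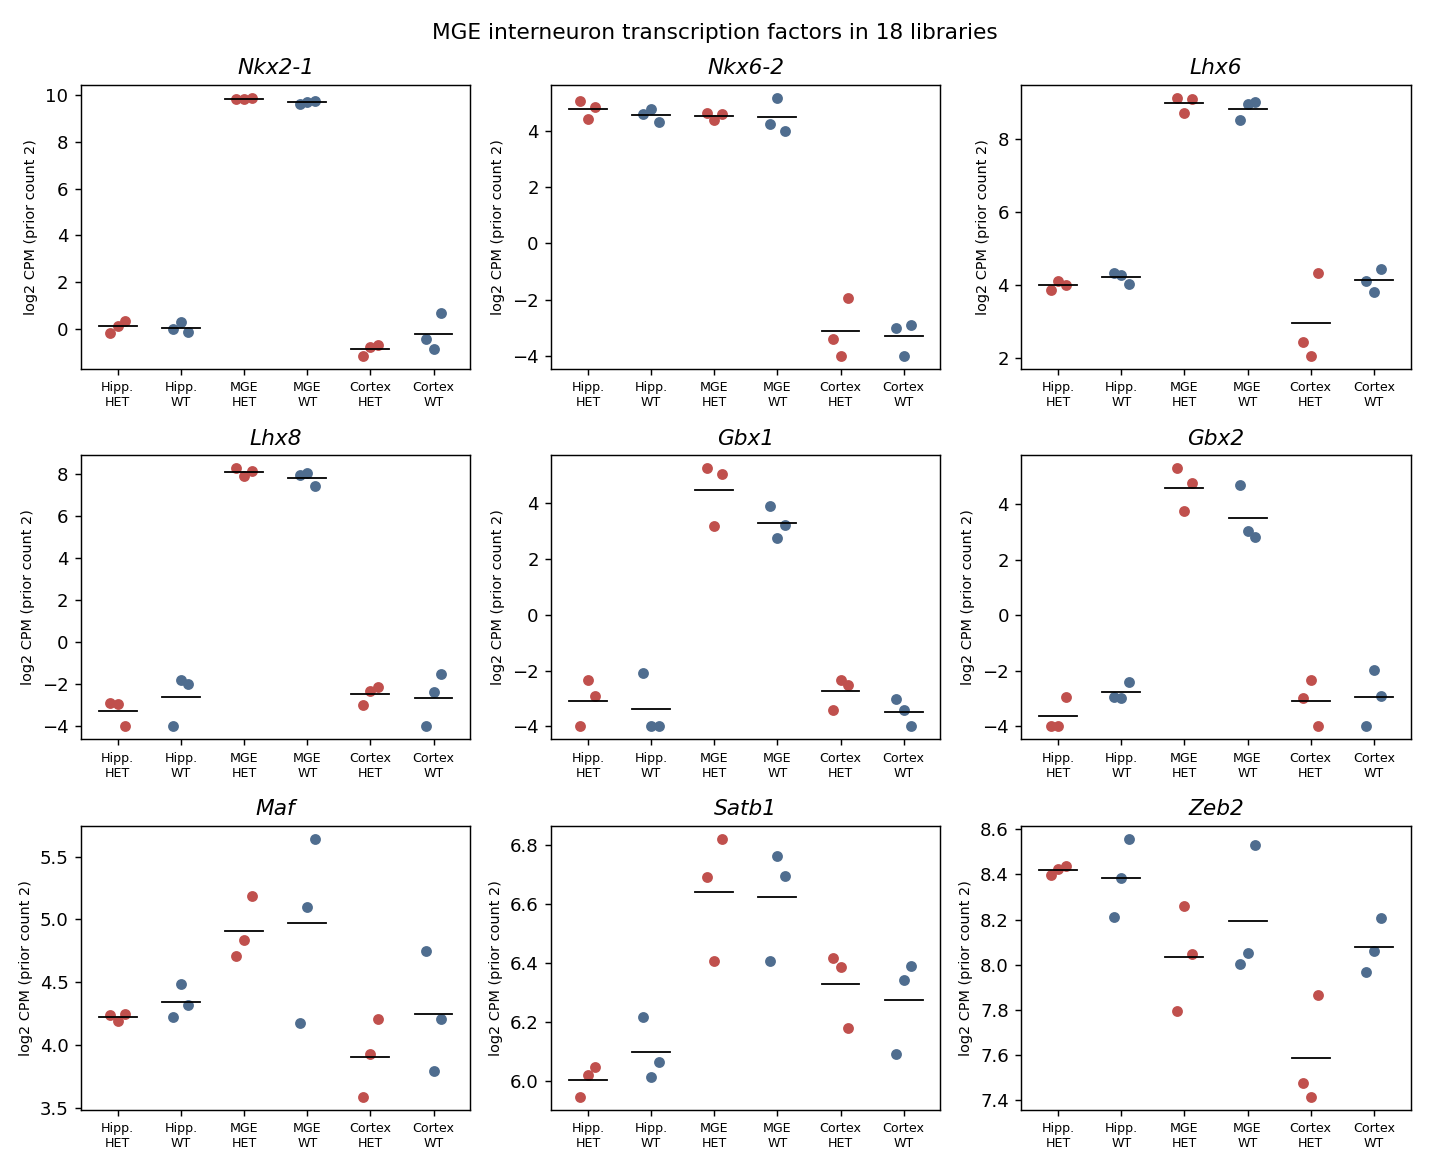
Level of each of the 9 genes in the 18 libraries, as log2 CPM with a prior count of 2 (vertical axis, its range set for each gene), for HET (red) and WT (blue) libraries of P45 hippocampus, E13.5 MGE and E13.5 cortex. Points are libraries and lines are group means of 3; Nkx2-1, Lhx6, Lhx8, Gbx1 and Gbx2 are high in the 6 MGE libraries, while Maf (11.9 to 49.9 CPM), Satb1 and Zeb2 are present in all 18.

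Nkx2-1, the homeodomain gene that gives the MGE its identity, had 914, 914 and 952 CPM in HET MGE and 789, 841 and 879 CPM in WT MGE. In the cortex it had 0.383, 0.513 and 0.558 CPM in HET and 0.664, 0.484 and 1.55 CPM in WT, or 12 to 43 counts per library. In the hippocampus it had 0.818, 1.02 and 1.21 CPM in HET and 0.923, 1.17 and 0.849 CPM in WT. The MGE libraries thus stood apart from all others with no overlap. The log2 fold change of MGE over cortex was 10.88 (SE 0.20, adjusted p = 3.75e-08) in HET and 9.90 (SE 0.30, adjusted p = 5.05e-07) in WT.

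Nkx6-2, known from the boundary between the lateral and medial eminences and later from oligodendrocytes, had 24.8, 20.6 and 24.1 CPM in HET MGE and 19.1, 36.0 and 16.1 CPM in WT MGE. Hippocampal levels were of the same size, 33.0, 21.2 and 29.1 CPM in HET and 24.4, 27.4 and 19.99 CPM in WT. In the cortex it had at most 7 counts in a library, 8 counts over the 3 HET and 4 over the 3 WT libraries. Scaled for depth, its summed counts in WT were 536 times higher in MGE than in cortex (exact 95% interval 209 to 1968) and 549 times higher in hippocampus than in cortex (214 to 2015), intervals that cover counting error only. WT hippocampus and WT MGE did not differ past the threshold (log2 fold change 0.01, SE 0.31, 95% interval -0.73 to 0.76). Without MGE WT 2, the highest library, the hippocampus was higher by 0.45 (adjusted p = 0.0236).

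Nkx6-2 is the member that was high in P45 hippocampus but not in embryonic cortex, and genes of oligodendrocytes followed the same division. The oligodendrocyte list (9 genes) summed to 7175 to 10567 CPM in HET hippocampus and 6716 to 8524 CPM in WT hippocampus, 72.7 to 80.6 CPM in HET MGE and 69.9 to 77.1 CPM in WT MGE, and 66.3 to 83.8 CPM in HET cortex and 56.3 to 74.9 CPM in WT cortex. In hippocampus against cortex all 9 of its genes were called higher in WT (median log2 fold change 8.39, all genes -0.0024), where 41.1% of all genes were. Of these, Mobp, Sox10 and Opalin passed the filter on low counts only through the hippocampus. In MGE against cortex 4 of the 7 tested were called higher and 1 lower in HET (median 0.67), and 5 of 7 higher and 1 lower in WT (median 0.57). Of all genes 11.4% were called higher in HET and 24.9% in WT. Mobp and Sox10 passed the filter there only through the MGE. The part of the oligodendrocyte list in the levels of Nkx6-2 was not tested. Nkx6-2 also shares 277 bases with Inpp5a on the opposite strand, which had 53.2 ± 4.07 CPM in HET hippocampus and 56.8 ± 6.06 CPM in WT hippocampus, and 23.9 ± 2.85 CPM in HET cortex and 22.5 ± 1.30 CPM in WT cortex (SD, n = 3). In MGE Inpp5a had 28.6 ± 2.02 CPM in HET and 28.0 ± 0.605 CPM in WT. The strand setting of the counting is not given, and shared reads were not tested.

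Lhx6, the LIM-homeodomain gene retained by migrating MGE interneurons, was the MGE member with a clear second site. It had 553, 415 and 543 CPM in HET MGE and 363, 494 and 514 CPM in WT MGE. The cortex had 5.40, 4.11 and 20.04 CPM in HET and 17.3, 14.0 and 21.6 CPM in WT, and the hippocampus 14.3, 17.2 and 16.0 CPM in HET and 19.9, 19.4 and 16.3 CPM in WT. MGE exceeded cortex by a log2 fold change of 5.66 in HET (SE 0.61, adjusted p = 0.000292) and 4.71 in WT (SE 0.22, adjusted p = 3.47e-06). The HET value was 6.73 without cortex HET 3 and 4.65 without cortex HET 1 and HET 2. WT hippocampus did not differ past the threshold from WT cortex (0.14, SE 0.16, 95% interval -0.21 to 0.49). Where Nkx2-1 outside the MGE was near 1 CPM, Lhx6 was therefore at 14.0 to 21.6 CPM in both WT tissues.

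Lhx8, needed for cholinergic neurons of the basal forebrain, had 305, 241 and 276 CPM in HET MGE and 247, 258 and 169 CPM in WT MGE. No library outside the MGE had more than 8 counts of it. In WT its depth-scaled counts were 1734 times higher in MGE than in cortex (exact 95% interval 993 to 3357) and in HET 2202 times higher (1261 to 4263). AI606473, a transcript that GENCODE starts 161 bases upstream on the opposite strand and which was picked for that position, followed it. It had 89.5, 61.2 and 79.7 CPM in HET MGE and 79.2, 65.6 and 44.4 CPM in WT MGE, and at most 0.213 CPM in any other library. Both genes of this divergent pair were lowest in WT 3 among the 6 MGE libraries. The printed Lhx8 window covers most of the gap between their annotated starts.

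Gbx1 and Gbx2, related homeobox genes of which Gbx2 is best known from the boundary of midbrain and hindbrain, were the least even members among MGE libraries. Gbx1 had 37.7, 8.90 and 32.8 CPM in HET MGE and 14.96, 6.62 and 9.10 CPM in WT MGE. Gbx2 had 39.2, 13.4 and 26.98 CPM in HET MGE and 25.9, 8.17 and 7.03 CPM in WT MGE. Outside the MGE neither passed 6 counts in a library. In WT cortex Gbx1 had 3 counts over 3 libraries, which puts its depth-scaled ratio of MGE over cortex at 325 (exact 95% interval 111 to 1578). For Gbx2 the ratio was 169 (85.4 to 391) in WT and 427 (196 to 1165) in HET.

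Satb1, a chromatin organiser needed for somatostatin interneurons, had 103, 84.8 and 113 CPM in HET MGE and 84.8, 109 and 104 CPM in WT MGE. Cortex had 85.4, 83.6 and 72.5 CPM in HET and 68.2, 81.0 and 83.7 CPM in WT, and hippocampus 61.6, 64.8 and 66.0 CPM in HET and 74.3, 64.5 and 66.8 CPM in WT. In WT the MGE was above cortex by 0.36 (SE 0.11, adjusted p = 0.0199), but the call was lost without MGE WT 2 (adjusted p = 0.0924), MGE WT 3 (0.0654) or cortex WT 1 (0.0864). WT hippocampus was lower than WT MGE by 0.53 on the log2 scale (-0.53, SE 0.10, adjusted p = 0.000491).

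Maf, a basic leucine zipper gene of maturing interneurons, had 26.0, 28.4 and 36.4 CPM in HET MGE, 18.02, 34.2 and 49.9 CPM in WT MGE, 11.9, 15.2 and 18.4 CPM in HET cortex and 26.8, 13.8 and 18.4 CPM in WT cortex. The hippocampus had 18.8, 18.2 and 18.9 CPM in HET and 18.6, 22.4 and 19.9 CPM in WT. MGE was above cortex in HET by 0.99 (SE 0.20, adjusted p = 0.00762) with no overlap. In WT the groups overlapped and the difference of 0.80 did not pass (SE 0.45, adjusted p = 0.199), although without MGE WT 1 it did (adjusted p = 0.0403).

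Zeb2, the zinc-finger repressor that lowers Nkx2-1 in migrating interneurons and also acts in cortical excitatory neurons and glia, had 222, 307 and 264 CPM in HET MGE and 256, 265 and 370 CPM in WT MGE. Cortex had 177, 170 and 233 CPM in HET and 250, 267 and 296 CPM in WT, and hippocampus 337, 343 and 347 CPM in HET and 296, 334 and 377 CPM in WT. MGE and cortex did not differ past the threshold in either genotype, with 0.44 in HET (SE 0.17, adjusted p = 0.0908) and 0.14 in WT (SE 0.14, adjusted p = 0.428). In HET it passed without cortex HET 3 (0.61, adjusted p = 0.0105) and was 0.18 without cortex HET 1 and HET 2 (adjusted p = 0.521). WT hippocampus was above WT cortex by 0.37 (SE 0.09, adjusted p = 0.00403). Microglial genes, 10 of 11 of which were also called higher in that comparison, summed to 444 to 497 CPM in WT hippocampus and 71.5 to 109 CPM in WT cortex. All 9 oligodendrocyte genes (median log2 fold change 8.39) and all 8 astrocyte genes (5.85) were called higher there too, against a median of 2.65 for microglial genes. Of all genes tested 41.1% were called higher in that comparison. The part of these lists was not tested.

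**Figure D2:**
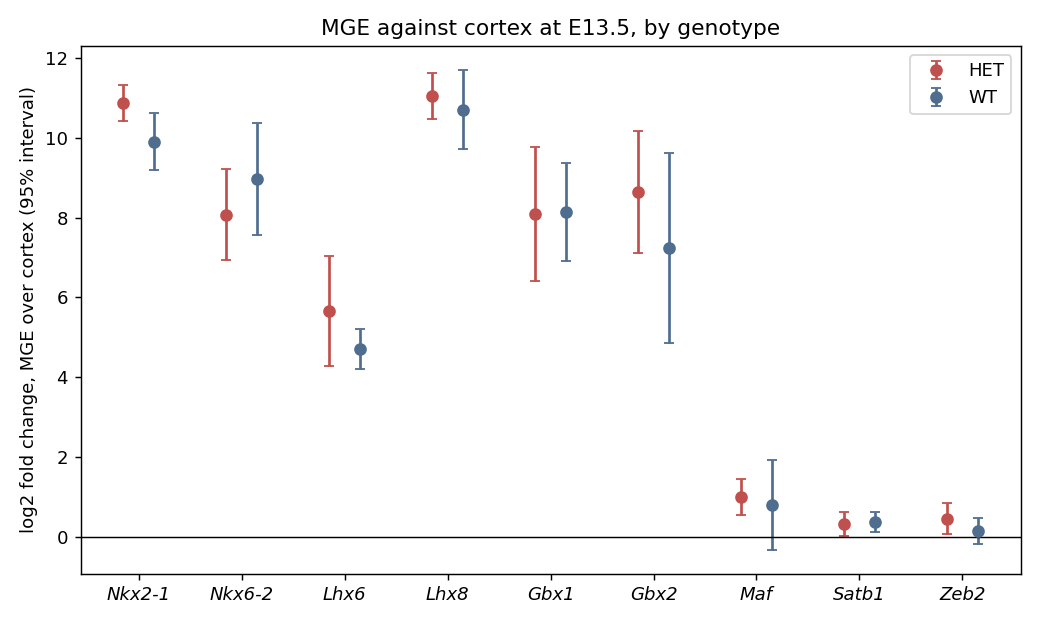
Log2 fold change of MGE over cortex at E13.5 (vertical axis) for each gene, in HET (red) and WT (blue), from edgeR. Points are estimates from 3 libraries against 3 and bars are 95% intervals; Nkx2-1, Nkx6-2, Lhx6, Lhx8, Gbx1 and Gbx2 lie between 4.71 and 11.06, and Maf, Satb1 and Zeb2 below 1.

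In all, 7 of 9 members were called higher in MGE than in cortex in HET, where 11.4% of all genes tested were called higher. In WT 7 of 9 were called higher, where 24.9% of genes were. The sets differed in 1 gene each, Maf in HET and Satb1 in WT. Nkx6-2, Lhx8, Gbx1 and Gbx2 had too few cortex counts to pass the filter on low counts except through the MGE, so these counts carry little beyond the values above. The members are also known from the MGE and were chosen with earlier results of these data known. An excess over the share of all genes is therefore no test of them. Without cortex HET 1 and HET 2, 6 of 9 were called in HET, since Gbx1 missed the threshold (adjusted p = 0.0885). WT hippocampus was lower than WT MGE for 6 of 9 members (41.7% of all genes were called lower) and higher than WT cortex for 2 of 6 tested members (41.1% of genes), Nkx6-2 and Zeb2. Lhx8, Gbx1 and Gbx2 passed the filter there only through the MGE, and Nkx6-2 only through the hippocampus.

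Genes that act with these factors were set between the same tissues. In WT, 12 of the 13 listed subpallial genes were called higher in MGE than in cortex (median log2 fold change 5.61, all genes 0.0020). Over all 14739 genes tested, 24.9% (3676) were called higher and 3612 lower. Among the 12 was Gsx1, a progenitor homeobox gene with 2286 counts over WT MGE and 2 over WT cortex (depth-scaled ratio 1039, exact 95% interval 287 to 8589). Gsx1 and Gsx2 had fewer than 10 counts in each WT cortex library and passed the filter only through the MGE, and the median was also 5.61 with Gsx2, at 0 in WT cortex, set to 3 counts there. Sp8, a marker of the lateral and caudal eminences that is also expressed in cortical progenitors, was the 1 gene of that list lower in MGE (-1.51, SE 0.32, adjusted p = 0.00542). Of 10 patterning genes, 6 were higher and 2 lower. Olig2, a progenitor factor (7.17, SE 0.12), Shh, the ligand (2859 counts over WT MGE and 5 over WT cortex, ratio 520.0, 223 to 1603), and Ptch1, its receptor and target (3.20, SE 0.20), were higher. The hedgehog effectors Gli2 and Gli3 were lower. Shh, too, had fewer than 10 counts in each WT cortex library and passed the filter only through the MGE. LHX6 and LHX8 act with LDB proteins, to which LMO and SSBP proteins also bind. Among the 10 cofactor genes listed 3 were called higher and 2 lower (median 0.02), near the shares of all genes. They included Lmo1 (1.53, SE 0.08) and Ldb2 (-2.52, SE 0.17), with Lmo4 and Ssbp2 also higher and Lmo2 also lower. Of the 12 tested genes of the MGE lineage, 8 were higher and 1, Cxcr4, lower, with Sox6, an effector of Lhx6, at 1.08 (SE 0.10) and Ackr3, a chemokine receptor of migrating interneurons, at 1.97 (SE 0.16).

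Levels can be compared between genes only per length, here as CPM per kilobase of annotated exons. That length joins the exons of all annotated transcripts, 19.0 kilobases for Satb1, 19.9 for Zeb2 and at most 8.24 for the others. The RNA present may be shorter, so the order below depends on this choice of length. In HET MGE the order was led by Nkx2-1 (326 ± 7.59), then Lhx8 (108 ± 12.8) and Lhx6 (105 ± 16.1), in WT MGE by Nkx2-1 (294 ± 15.9), then Lhx6 (95.2 ± 17.0) and Lhx8 (88.8 ± 19.1, SD, n = 3 each). Lhx6 and Lhx8 did not differ beyond their spread in either genotype. The next level down was Zeb2 at 13.3 ± 2.13 in HET and 14.9 ± 3.17 in WT, close to Nkx6-2 at 12.2 ± 1.18 in HET and 12.4 ± 5.64 in WT. Gbx2 had 12.2 ± 5.93 in HET, level with Nkx6-2, and 6.29 ± 4.85 in WT, and Gbx1, Maf and Satb1 had means of 2.94 to 7.62. In the hippocampus Zeb2 led with 17.2 ± 0.241 in HET and 16.8 ± 2.02 in WT, and in the cortex with 9.71 ± 1.73 in HET and 13.6 ± 1.15 in WT.

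The second question was whether loss of 1 Chd2 copy changed these genes in the MGE itself. None of the 9 members, all of them tested, passed the threshold there. This count of 0 of 9 stood against 0.0479% of all genes tested (7 of 14624). Of those 7 genes 5 were sex-linked, 4 higher and 1 lower in HET. At an unadjusted p under 0.05 it was also 0 of 9, where 4.51% of all genes were under it, and DESeq2 and limma-voom called 0 as well. The estimates nevertheless differed in precision, from a narrow interval for Nkx2-1 to one of several-fold width for Gbx1.

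Nkx2-1 was higher in each HET library than in each WT library, with means of 927 ± 21.6 CPM (HET) and 836 ± 45.1 CPM (WT; SD, n = 3). The log2 fold change was 0.13 (SE 0.10, 95% interval -0.08 to 0.34, adjusted p = 0.980), and 5.13% of all genes had HET libraries that all lay above the WT libraries. Lhx6 gave 0.12 (SE 0.16, 95% interval -0.23 to 0.47) and Lhx8 0.27 (SE 0.16, -0.09 to 0.63), with overlapping groups. For these 3 factors the intervals reached no lower than -0.23. AI606473, beside Lhx8, gave 0.27 (SE 0.22).

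Gbx1 and Gbx2 had the largest estimates among the 9 members in the MGE. Gbx1 averaged 26.5 ± 15.4 CPM in HET and 10.2 ± 4.28 CPM in WT, with a log2 fold change of 1.35 (SE 0.62, 95% interval -0.21 to 2.91, unadjusted p = 0.0771, adjusted p = 0.980). Gbx2 averaged 26.5 ± 12.9 CPM in HET and 13.7 ± 10.6 CPM in WT, with 0.93 (SE 0.67, -0.80 to 2.66, adjusted p = 0.980). In both genes HET 2 was far below HET 1 and HET 3, and WT 1 was above the other WT libraries. Leaving out 1 library at a time gave 1.01 to 1.77 for Gbx1 and 0.55 to 1.78 for Gbx2, none of them past the threshold.

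**Figure D3:**
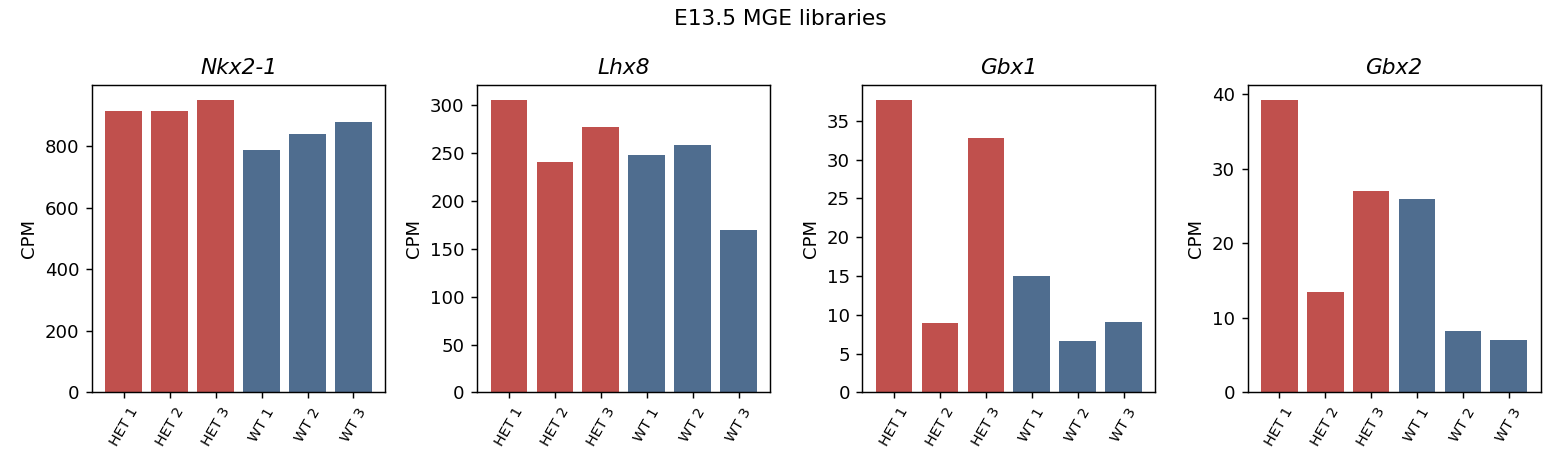
CPM (vertical axis, from 0) of Nkx2-1, Lhx8, Gbx1 and Gbx2 in each E13.5 MGE library, HET in red and WT in blue. Nkx2-1 is nearly level, with HET at 914 to 952 and WT at 789 to 879, while Gbx1 and Gbx2 are high in HET 1, HET 3 and, for Gbx2, WT 1, and low in HET 2.

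Neuronal genes and cholinergic genes varied between the same libraries. The mean log2 deviation of 9 neuronal genes was 0.30, -0.35 and 0.04 in HET 1, 2 and 3 and -0.17, -0.06 and 0.23 in WT 1, 2 and 3. That of 6 cholinergic genes was 0.68, -0.69 and 0.06 in HET and 0.25, -0.32 and 0.02 in WT, so HET 1 was highest and HET 2 lowest, as for Gbx1 among the HET libraries. Their part in the spread of Gbx1 and Gbx2 was not tested.

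The remaining members had estimates near 0. Satb1 gave 0.0042 (SE 0.13, 95% interval -0.28 to 0.29) and Nkx6-2 -0.05 (SE 0.30, -0.75 to 0.66). Maf gave -0.18 (SE 0.37, -1.09 to 0.73) and Zeb2 -0.18 (SE 0.17, -0.57 to 0.20). WT 3 was the highest MGE library for both Maf and Zeb2. It also had the highest level of the 11 pallial excitatory genes, with mean log2 deviations of -0.15, -0.54 and -1.0 in HET and -0.09, 0.65 and 1.14 in WT. Their summed level was low, 8.97 to 17.0 CPM over the HET libraries and 11.7 to 24.2 CPM over the WT libraries with no gene at 0, and their part was not tested. The 13 MGE lineage genes were highest in WT 3 too. They deviated by 0.11, -0.28 and 0.01 in HET and by -0.19, -0.11 and 0.47 in WT, and their part was not tested either.

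Neighbouring genes were likewise not called by genotype in the MGE. Of 10 patterning genes 0 passed (7 above 0, median 0.08), of 13 subpallial genes 0 passed (8 above 0, median 0.03), and of 13 MGE lineage genes 0 passed (3 above 0, median -0.15), where the median of all genes was 0.01. Shh gave 0.30 (SE 0.25) and Smo, its signal transducer, 0.16 (SE 0.11). Gsx1 gave -0.31 (SE 0.12), and Nxph1, an interneuron neurexophilin, -0.70 (SE 0.28, adjusted p = 0.980). Of 10 LIM cofactors 0 passed (5 above 0, median -0.0030).

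**Figure D4:**
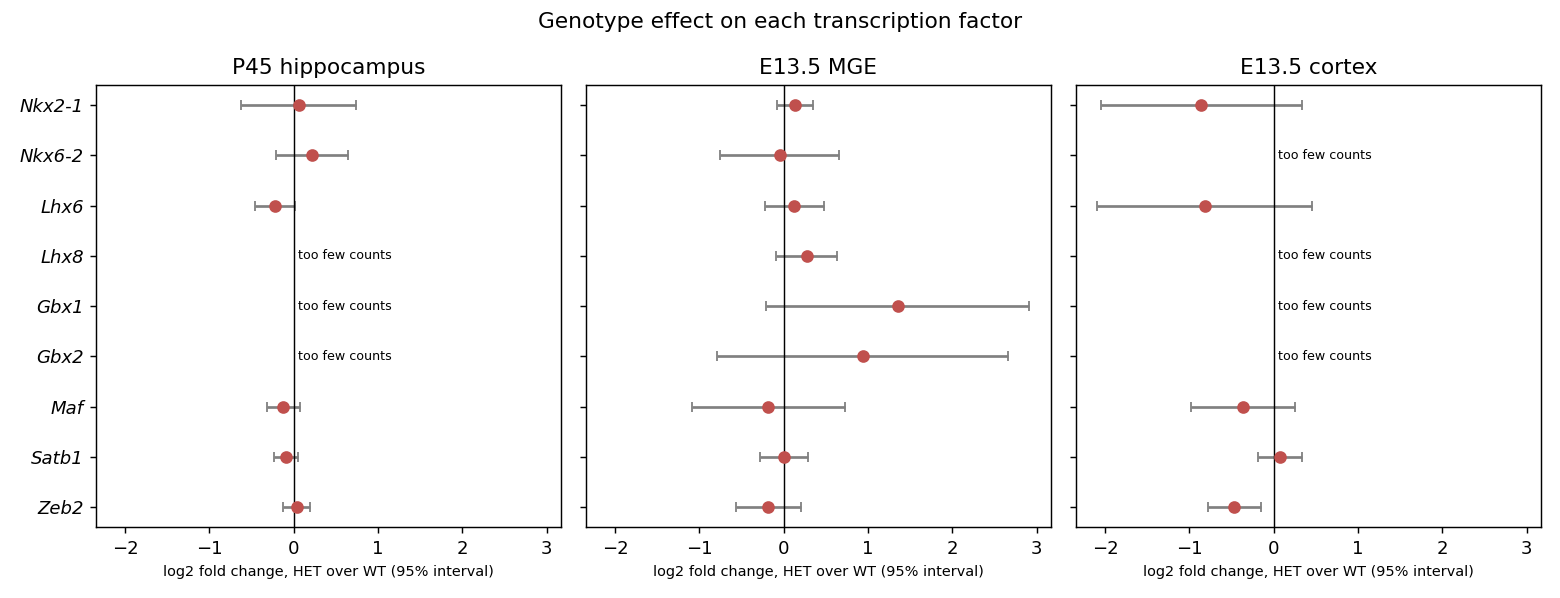
Log2 fold change of HET over WT (horizontal axis) for each gene in P45 hippocampus, E13.5 MGE and E13.5 cortex, from edgeR with 3 libraries a genotype. Points are estimates and bars 95% intervals; members marked with too few counts were not tested, and of all intervals drawn that of Zeb2 in cortex, -0.78 to -0.15, is the one that leaves out 0.

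The third question was the same contrast in the cortex, which receives MGE interneurons at this age. The interneuron factor Lhx6 and the repressor Zeb2 had lower means in HET cortex than in WT cortex, but the result for both turned on which HET libraries were included. None of the 5 members tested (Nkx2-1, Lhx6, Maf, Satb1 and Zeb2) passed the threshold, and neither did any gene (0% of 14757). DESeq2 called 11 genes and limma-voom 0, with 0 members in each. At an unadjusted p under 0.05 the members' count was 1, Zeb2, where 7.89% of all genes were under it.

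Zeb2 averaged 194 ± 34.5 CPM in HET and 271 ± 23.0 CPM in WT (SD, n = 3), and every HET library was below every WT library, as were 6.29% of all genes. Its log2 fold change was -0.47 (SE 0.14, 95% interval -0.78 to -0.15, unadjusted p = 0.00990, adjusted p = 0.578). Zeb2os, the antisense transcript inside the Zeb2 gene, had 1.40, 0.890 and 2.76 CPM in HET and 2.90, 2.94 and 3.25 CPM in WT, also with no overlap (-0.82, SE 0.40, adjusted p = 0.578). Reads of the pair cannot be told apart where counting ignores strand, and shared reads were not tested. Zeb2os was at most 3.25 CPM in cortex and Zeb2 at least 170 CPM.

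Lhx6 averaged 9.85 ± 8.85 CPM in HET and 17.6 ± 3.78 CPM in WT. Its HET libraries 1 and 2, at 5.40 and 4.11 CPM, were below all WT libraries, while HET 3, at 20.04 CPM, lay inside the WT range of 14.0 to 21.6 CPM. The log2 fold change was -0.82 (SE 0.55, 95% interval -2.09 to 0.46, adjusted p = 0.586). Without HET 3 it was -1.87 (SE 0.22, adjusted p = 0.000795) and that of Zeb2 -0.62 (SE 0.08, adjusted p = 0.000833), in a fit that called 4598 genes in all. With HET 1 and HET 2 left out, chosen after seeing the data, Lhx6 was 0.19 (SE 0.23, adjusted p = 0.956) and Zeb2 -0.21 (SE 0.11, adjusted p = 0.833).

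**Figure D5:**
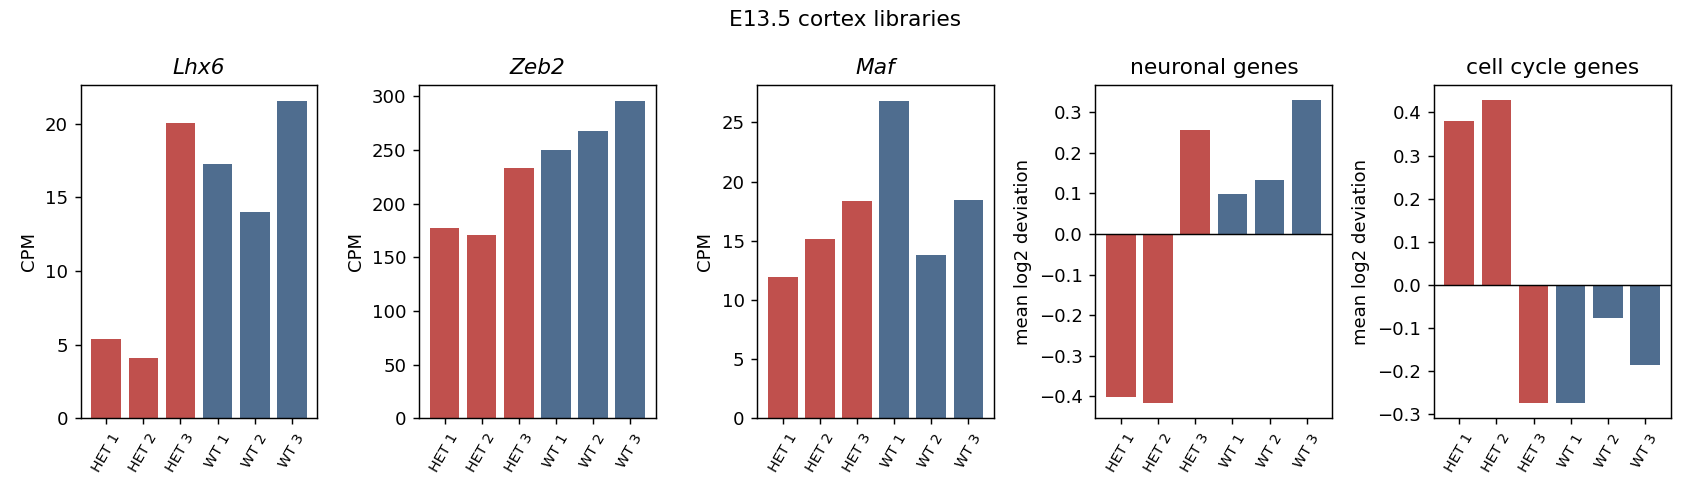
CPM (vertical axis, from 0) of Lhx6, Zeb2 and Maf in each E13.5 cortex library, with the mean log2 deviation of 9 neuronal and 15 cell cycle genes from the cortex mean, HET in red and WT in blue. HET 1 and HET 2 are low in Lhx6, Zeb2 and neuronal genes and high in cell cycle genes, and HET 3 resembles the WT libraries in Lhx6 at 20.04 CPM.

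The libraries with low Lhx6 and Zeb2 differed in other ways too. Neuronal genes were at -0.40 and -0.42 in HET 1 and HET 2 and 0.26 in HET 3, whereas WT 1, WT 2 and WT 3 were at 0.10, 0.13 and 0.33, and their 9 genes were all below 0 for HET over WT (median log2 fold change -0.33, 0 called). All 15 cell cycle genes were above 0 (median 0.44, 0 called), where the median of all genes was 0.01. The part of these differences in the levels of Lhx6 and Zeb2 was not tested.

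Other genes of migrating interneurons followed Lhx6 from library to library. The 13 subpallial genes deviated by -0.39 and -0.46 in HET 1 and HET 2 and by 0.22 in HET 3, against 0.30, -0.06 and 0.39 in WT. For HET over WT 7 of 10 tested were below 0 (median -0.69, 0 called), with Dlx2, a homeobox gene of GABAergic fate, at -0.82 (SE 0.42, adjusted p = 0.578) and Slc32a1, the vesicular GABA transporter, at -0.73 (SE 0.43). Sp8 ran the other way at 0.87 (SE 0.44, adjusted p = 0.578). Of the 12 tested MGE lineage genes, 10 were below 0 (median -0.33, 0 called), among them Erbb4, a neuregulin receptor, at -0.79 (SE 0.38), and Nxph1 at -0.88 (SE 0.45).

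Nkx2-1 in cortex rested on 47 counts over the HET and 80 over the WT libraries, 43 of them in WT 3. Its log2 fold change was -0.86 (SE 0.51, 95% interval -2.05 to 0.33, adjusted p = 0.578) and -0.22 without WT 3, -0.97 without HET 3 and -0.67 without HET 1 and HET 2. Maf gave -0.36 (SE 0.27, -0.98 to 0.26, adjusted p = 0.605), -0.52 without HET 3 and -0.094 without HET 1 and HET 2. Maf was lowest in HET 1 and highest in WT 1, as were the 11 microglial genes, which summed to 60.3, 69.9 and 101 CPM in HET and 109, 71.5 and 80.8 CPM in WT, with none at 0 and their part not tested. Satb1 gave 0.07 (SE 0.11, -0.19 to 0.33), the 1 tested member with a mean above WT, 0.14 without HET 3 and -0.093 without HET 1 and HET 2.

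In the hippocampus, where mature interneurons and glia are present, the question was whether the genotype left a mark on the factors that stay on. None of the 6 members tested was called, where 1.07% of all genes were (164 of 15283). The count at an unadjusted p under 0.05 was also 0, where 15.6% of all genes were under it, and DESeq2 and limma-voom called 0 members. The intervals here were the narrowest of the 3 tissues for Lhx6, Maf, Satb1 and Zeb2.

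Lhx6 averaged 15.8 ± 1.45 CPM in HET and 18.5 ± 1.92 CPM in WT (SD, n = 3), a log2 fold change of -0.22 (SE 0.11, 95% interval -0.46 to 0.01, unadjusted p = 0.0598, adjusted p = 0.345). HET 2, at 17.2 CPM, lay above WT 3, at 16.3 CPM. Maf gave -0.12 (SE 0.09, -0.32 to 0.07), Satb1 -0.09 (SE 0.07, -0.24 to 0.05) and Zeb2 0.03 (SE 0.07, -0.12 to 0.19). For these 3 genes no interval reached beyond 0.32 in either direction. Nkx2-1, at 23 to 36 counts a library, gave 0.06 (SE 0.31).

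Nkx6-2 averaged 27.7 ± 6.02 CPM in HET and 24.0 ± 3.74 CPM in WT, with 0.21 (SE 0.18, 95% interval -0.21 to 0.64, adjusted p = 0.628). HET 1 and HET 3 were its highest hippocampal libraries, and they were also the highest for the oligodendrocyte list, which summed to 10567, 7175 and 9657 CPM in HET and 8015, 8524 and 6716 CPM in WT. Of the 9 oligodendrocyte genes 8 were above 0 (median 0.30, 1 called, Opalin), and their part was not tested. Of the 13 MGE lineage genes 0 were called (8 above 0, median 0.01), with Npas1, an interneuron transcription factor, at -0.17 (SE 0.09, adjusted p = 0.413) and Cxcr4, a chemokine receptor, at 0.30 (SE 0.20). Of the 13 subpallial genes 0 were called (4 above 0, median -0.04), with Slc32a1 at -0.19 (SE 0.07, adjusted p = 0.226) and Sp9, a zinc-finger factor, at -0.28 (SE 0.12, adjusted p = 0.284).

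Whether the genotype effect differed between tissues was tested directly, in one fit of all 18 libraries. No member was called for MGE minus cortex (0% of 16125 genes called), MGE minus hippocampus (0.0062%) or cortex minus hippocampus (0.0124%), and DESeq2 and limma-voom called 0 members too. At an unadjusted p under 0.05 the members numbered 1, 0 and 1 in that order, where 7.01%, 7.36% and 12.8% of all genes were under it. Nkx2-1 differed by 0.98 for MGE minus cortex (SE 0.37, 95% interval 0.20 to 1.76, unadjusted p = 0.0169, adjusted p = 0.710), resting on its few cortex counts, and by 0.37 (SE 0.27, adjusted p = 0.943) without cortex WT 3. Lhx6 differed by 0.94 (SE 0.53, -0.19 to 2.07, adjusted p = 0.732) and Zeb2 by 0.30 (SE 0.22, -0.16 to 0.76). For cortex minus hippocampus Zeb2 differed by -0.51 (SE 0.22, -0.97 to -0.05, unadjusted p = 0.0317, adjusted p = 0.359). Without cortex HET 3 the Lhx6 differences passed, at 2.03 for MGE minus cortex (adjusted p = 0.00167) and -1.68 for cortex minus hippocampus (adjusted p = 0.00175), as did Zeb2 for cortex minus hippocampus at -0.69 (adjusted p = 0.0302). Without cortex HET 1 and HET 2 they did not, with Lhx6 at -0.070 for MGE minus cortex (adjusted p = 0.993) and 0.42 for cortex minus hippocampus (0.982), and Zeb2 at -0.24 for cortex minus hippocampus (0.995).

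Finally, the genes whose pattern was most like each member were taken by the Pearson coefficient of log2 CPM over the 18 libraries, among genes whose mean log2 CPM reached 1. The 18 points share 6 groups and their tissues, and the coefficients are a description. For Nkx2-1 the nearest genes were Dlx2 (0.995), Dlx5 (0.989) and Arl4c (0.988), for Lhx6 Dlx1as (0.996), Dlx1 (0.995) and Gm14204 (0.994), and for Lhx8 Pou3f4 (0.985), Myo10 (0.983) and Dlx2 (0.980). The Dlx genes are homeobox factors of subpallial GABAergic neurons, and Pou3f4 is a POU-domain factor. For Gbx2 they were Myo10 (0.980), Pou3f4 (0.969) and Acss1 (0.967), and for Gbx1 Cxxc4 (0.968), Myo10 (0.963) and Capn6 (0.963).

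Nkx6-2, present in MGE and hippocampus, was nearest to Slc32a1 (0.986), Hhip (0.986), a hedgehog-binding protein, and Abat (0.985), an enzyme of GABA breakdown. Among the widely expressed members, the genes nearest to Satb1 were Smarcd1 (0.977), Bag6 (0.953) and Ulk1 (0.952). Coefficients were lower for Zeb2, with Acbd5 (0.916), Zdhhc17 (0.905) and Gpcpd1 (0.889), and for Maf, with Gucy1a3 (0.882), Abca1 (0.866) and Col22a1 (0.857).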

How the data were processed

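The authors deposited 1 table of raw counts per gene symbol for 18 libraries, with no normalization. Per the submitters' processing notes, FastQC, Trimmomatic, TopHat2 2.1.1, SAMtools and DESeq2 were used with build mm10; how reads were counted, on which annotation and with which strand setting, is not given in these sources. Of the 24062 lines, 3700 had no counts.

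The members and gene lists were chosen with earlier results of these data known. Comparisons of 2 groups were fitted on their own 6 libraries with edgeR 4.0.16 (R 4.3.3): filterByExpr (minimum count 10, minimum total 15), TMM scaling, robust quasi-likelihood F test, Benjamini-Hochberg adjustment over all genes tested, threshold 0.05. A difference in genotype effect between tissues was a contrast in one joint fit of the 18 libraries, given for members tested in both tissues. The standard error (SE) is the absolute log2 fold change divided by the square root of F, and intervals are 95%. CPM errors are SDs over 3 libraries. Ratios of summed low counts carry exact intervals that cover counting error only, and library depth limits what such counts can show. Deviations of a list are means of log2 CPM (prior count 2) from the mean of the tissue.

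All 9 members are named in each comparison, with the 3 genes most like each and up to 4 genes of each related list by lowest p. AI606473, Inpp5a and Zeb2os were added for their position. Sp8 and Cxcr4 against cortex, Gsx2, Gli2, Gli3, Lmo4, Ssbp2, Lmo2, Opalin, Mobp, Sox10 and the marker lists set beside a result were chosen after values were seen. The test was checked on simulated counts. Alternatives were RLE scaling, no filter, DESeq2 1.42.0, limma-voom (limma 3.58.1), a joint fit of the 18 libraries, a block for replicate number and leaving out each library.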

Additional observations from a re-analysis of the deposited data

How the results depend on the processing

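Under RLE scaling, no filter on low counts, DESeq2 and limma-voom the number of members called in each of the 10 comparisons was the same as reported or within 1.5 times of it, and 1 gene crossed the threshold, Zeb2 for MGE over cortex in HET with DESeq2 (adjusted p = 0.04998). In one fit of all 18 libraries the members called higher in hippocampus than in cortex numbered 1, since Zeb2 then missed the threshold (adjusted p = 0.0552). Maf for MGE over cortex in WT (adjusted p = 0.0349) passed it, as did Satb1 (0.0435) and Zeb2 (0.0294) for MGE over cortex in HET. Maf in hippocampus against MGE, lower in hippocampus at -0.73, passed it too (0.0292). Limma-voom turned Nkx6-2 for HET over WT in MGE to 0.05 and the Maf effect in MGE minus hippocampus to 0.077. With cortex HET 1 and HET 2 left out, chosen after seeing the data and resting on 1 HET library that is assumed to vary like the others, Lhx6 turned to 0.19 and Satb1 to -0.093 for HET over WT in cortex, Lhx6 to -0.070, Maf to -0.088 and Satb1 to 0.097 for MGE minus cortex, and Lhx6 to 0.42 and Maf to 0.035 for cortex minus hippocampus.

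Over all genes tested, deviations of libraries with the same replicate number had correlations of -0.25 to 0.17 within comparisons. With 3 libraries a group this cannot decide whether the number pairs libraries for single genes. With the replicate number as a block, 0 members were called for HET over WT in each tissue, no member's call changed in any comparison, and Nkx6-2 in MGE turned to 0.041. For HET over WT in MGE the block lowered the SE of Gbx1 from 0.62 to 0.26 and of Gbx2 from 0.67 to 0.27. That of Maf fell from 0.37 to 0.19, while those of Nkx2-1, Lhx6 and Satb1 rose.

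Leaving out 1 library at a time gave 0 to 2 members called for HET over WT in cortex, 2 to 4 for hippocampus over cortex, 0 to 1 for MGE minus cortex and 0 to 2 for cortex minus hippocampus. The upper values came without cortex HET 3, and for hippocampus over cortex, counted in either direction, without cortex WT 1. Maf, higher in hippocampus by 0.39 (adjusted p = 0.0306), and Satb1, lower there at -0.21 (0.0360), then also passed. Single values that changed sign, none of them past the threshold with the changed sign, were for HET over WT in MGE Nkx6-2 (-0.26 to 0.39), Lhx6 (-0.019 to 0.25), Maf (-0.49 to 0.20), Satb1 (-0.10 to 0.11) and Zeb2 (-0.30 to 0.014), in cortex Satb1 (-0.040 to 0.14), and in hippocampus Nkx2-1 (-0.081 to 0.21) and Zeb2 (-0.044 to 0.11). For MGE over cortex in WT this was Zeb2 (-0.041 to 0.23), for hippocampus over cortex Nkx2-1 (-0.095 to 0.82) and Maf (-0.091 to 0.39), and for hippocampus over MGE Nkx6-2 (-0.19 to 0.45). For MGE minus cortex these were Maf (-0.12 to 0.57) and Satb1 (-0.16 to 0.050), for MGE minus hippocampus Nkx2-1 (-0.067 to 0.22), Nkx6-2 (-0.48 to 0.18), Maf (-0.37 to 0.32) and Satb1 (-0.0052 to 0.20), and for cortex minus hippocampus Maf (-0.45 to 0.051). Without MGE WT 1 Maf in hippocampus was below MGE by a log2 fold change of -1.04 (adjusted p = 0.000176), and without MGE WT 3 Zeb2 was above it by 0.37 (0.00582). Low counts of Nkx2-1 outside the MGE, 12 to 43 in a library, limit its estimates there. The causes of these changes were not tested.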
